A study of Homo sapiens with 6 samples.

Results

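The tetraspanins are a family of small membrane proteins, and their transcripts were followed here in MCF-10A cells with and without ectopic CRB3. Members were taken by name from the array annotation, as every probe set whose gene symbol begins with TSPAN and a number or is CD9, CD37, CD53, CD63, CD81, CD82, CD151, UPK1A, UPK1B, PRPH2 or ROM1. This gave 61 of the 54613 probe sets of the array and 33 of its 19775 named genes. Of these, 32 encode tetraspanins, and TSPAN16-AS1, taken by the letter of the naming rule, is an antisense RNA. No probe set carried a tetraspanin symbol together with a second one, and TSPAN19 was not analysed here.

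MCF-10A cells are human mammary epithelial cells that were immortalized without being transformed. All cells were infected with a retrovirus and selected. The study's methods name puromycin for its hairpin RNA lines, and puromycin with G418 where hairpins were added to CRB3-expressing cells. They also state that the tagged CRB3 constructs were moved into the vector pLNCX2, while the sample titles name pNG for the control. CRB3-expressing cells received Crb3, the transmembrane polarity protein Crumbs3, which the study's methods describe as amino-terminally myc-tagged, and vector control cells received the empty pNG vector. Total RNA was taken from proliferating monolayers at 70% confluence in normal growth medium, which holds EGF, with 3 samples per group and 1 Affymetrix U133 Plus array per sample. The cells are a selected line in which the transgene is driven by the retrovirus, and whether the triplicates go back to separate infections is not stated in the sources used here, so a p-value reflects the spread of these samples alone.

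Tetraspanins cross the membrane 4 times and expose a small and a large extracellular loop, and the large loop carries a conserved CCG motif and disulphide bonds. They bind each other and selected partners, among them laminin-binding integrins, immunoglobulin-superfamily proteins, membrane proteases and growth factor precursors, and so gather them into membrane patches called tetraspanin-enriched microdomains. In epithelia they are known for roles in adhesion, in the sorting of receptors through endosomes and in the make-up of extracellular vesicles. CD63, which cycles through late endosomes and lysosomes, served as a late endosome marker in the microscopy of the study. There the study counted more CD63-positive puncta with CRB3, a protein measure unlike the transcript levels followed here. Those counts come from an experiment with siRNA, and the study's methods include EGF starvation for immunofluorescence after siRNA transfection. The arrays, in contrast, are of cells grown with EGF.

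By the brightest probe set of each of the 33 genes, 2 were higher and 2 were lower in CRB3-expressing cells, and 29 did not pass both thresholds (an adjusted p under 0.05 from limma and a fold change above 1.5). The genes that rose were TSPAN1, a member of secretory epithelia, and CD9, a broadly expressed surface member. The genes that fell were TSPAN7, best known from neurons, and TSPAN18, known from endothelial cells. Over all genes of the array, 1.43% were called higher and 0.465% were called lower, against 6.06% of the tetraspanin genes in each direction. Counted over probe sets, 2 of the 61 were higher and 3 were lower, beside 0.948% and 0.363% of all probe sets. Without the fold threshold the same count of 2 higher and 2 lower remained, beside 3.37% and 1.77% of all genes. The median log2 fold change of the family was 0.024, and that of all genes was 0.0066.

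The CRB3 transcript itself lay at log2 values of 12.16, 11.996 and 12.19 on the CRB3-expressing arrays and at 7.90, 7.59 and 7.85 on the vector control arrays, in accord with the labels. Array medians ranged from 5.84 to 5.88, and arrays of a group correlated with each other at a Pearson's r of at least 0.997, against at most 0.996 for arrays of different groups. Vector control replicate 1 stood apart in its hybridization controls, which averaged 11.33 on the log2 scale while those of the remaining arrays averaged 10.89 to 11.08. Without that array the same 4 tetraspanin genes were called, with log2 fold changes of 0.79 for TSPAN1, 0.64 for CD9, -0.97 for TSPAN7 and -0.73 for TSPAN18.

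The sequence upstream of the annotated starts is shown for both genes that rose, so that the pair can be compared. The promoter sequences used here, from RefSeq (GRCh38.p14), covered 24 of the 33 genes, with TSPAN7 and TSPAN18 not among them, and the 250 bases before the start are printed. Capitals mark GC boxes (GGGCGG or CCGCCC, where neighbouring copies may touch or overlap) and CCAAT boxes (CCAAT or ATTGG). TSPAN1 lies on the plus strand at chr1:46174837-46175086. CD9, which has 4 annotated starts, is shown for its first start at chr12:6199696-6199945 and for the next at chr12:6200150-6200399, both on the plus strand.
TSPAN1: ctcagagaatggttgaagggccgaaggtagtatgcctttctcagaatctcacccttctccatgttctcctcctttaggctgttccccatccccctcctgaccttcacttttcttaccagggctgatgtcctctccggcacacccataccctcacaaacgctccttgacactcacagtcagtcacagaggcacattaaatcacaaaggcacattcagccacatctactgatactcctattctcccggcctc
CD9 first start: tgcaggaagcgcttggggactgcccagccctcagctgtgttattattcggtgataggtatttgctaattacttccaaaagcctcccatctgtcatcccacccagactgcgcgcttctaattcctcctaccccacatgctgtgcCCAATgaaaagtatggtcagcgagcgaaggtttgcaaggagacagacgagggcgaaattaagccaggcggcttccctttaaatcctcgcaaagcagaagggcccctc
CD9 second start: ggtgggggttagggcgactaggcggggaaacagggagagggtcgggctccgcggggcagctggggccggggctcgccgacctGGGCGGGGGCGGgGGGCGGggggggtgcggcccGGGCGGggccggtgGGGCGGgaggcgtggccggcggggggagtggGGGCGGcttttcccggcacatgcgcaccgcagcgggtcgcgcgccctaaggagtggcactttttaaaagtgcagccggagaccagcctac
The TSPAN1 stretch holds no GC box and no CCAAT box, and its GC content is 51.2%. The first CD9 stretch holds 1 CCAAT box at 52.8% GC, while the second holds 6 GC boxes at 76.8% GC. Another CD9 stretch, at chr12:6200592-6200841, holds 3 GC boxes and 1 copy of CACCTG (or its reverse, CAGGTG). Neither the TSPAN1 stretch nor the other CD9 stretches hold that E-box, and none of these 5 stretches holds a TATA box (TATAAA or TTTATA). Among all 35116 annotated starts, 42.6% had a GC box, 32.0% a CCAAT box, 17.5% the E-box and 10.7% the TATA box in the 250 bases before them, searched on both strands. Over the 44 stretches of tetraspanin genes, 27 had a GC box, 9 a CCAAT box, 11 the E-box and 1, that of UPK1A, the TATA box. Some of these stretches belong to the same gene and overlap. Counted over the 24 genes, 16 had a GC box in any stretch, 9 a CCAAT box, 9 the E-box and 1 the TATA box. These matches are a description of the letters, and the arrays do not tell which start was used.

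TSPAN1 rose 1.71-fold. Its single probe set had log2 RMA values of 10.62, 10.80 and 10.78 on the CRB3-expressing arrays and of 10.00, 9.91 and 9.98 on the vector control arrays. The lowest CRB3-expressing array thus lay above the highest vector control array by more than the range within either group. CRB3-expressing cells averaged 10.73 ± 0.099 and vector control cells 9.96 ± 0.048 (SD, n = 3 each), with a log2 fold change of 0.77 (SE 0.071, 95% interval 0.61 to 0.93, limma adjusted p = 0.000399). The lower end of that interval lay above the fold threshold, which is 0.585 on the log2 scale. The interval is not adjusted for the number of probe sets, however. By limma's treat, which asks whether a change exceeds 1.5-fold, TSPAN1 was not called after adjustment.

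CD9 rose 1.54-fold in its brightest probe set. CD9 is found at the surface of most epithelial cells, where it binds integrins and the precursor of the EGF receptor ligand HB-EGF. The CRB3-expressing arrays had log2 values of 12.51, 12.52 and 12.69, and the vector control arrays had 11.97, 11.85 and 12.01. Each CRB3-expressing array therefore lay above each vector control array. The log2 fold change was 0.63 (SE 0.076, 95% interval 0.45 to 0.80, limma adjusted p = 0.00204), so the interval spans the fold threshold. It fell just under that threshold without CRB3-expressing replicate 3 (0.57, limma adjusted p = 0.00898) and without vector control replicate 2 (0.58, limma adjusted p = 0.0102). The other CD9 probe sets were dim, with means under 6 on the log2 scale in both groups. One had a log2 fold change of 0.19 (limma adjusted p = 0.290) and the other one of -0.056 (limma adjusted p = 0.830), and neither was called. As the mean over its 3 probe sets, CD9 had a log2 fold change of 0.25 and was not called (limma adjusted p = 0.0513).

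TSPAN7 had the largest difference of the family, a 1.95-fold fall. On the vector control arrays its single probe set read 6.89, 6.83 and 7.0005 on the log2 scale, and on the CRB3-expressing arrays it read 5.98, 5.88 and 5.97. No value of one group came near those of the other. TSPAN7 fell by 0.96 on the log2 scale (SE 0.069, 95% interval -1.12 to -0.81, limma adjusted p = 8.53e-05). The CRB3-expressing mean of 5.95 ± 0.054 (SD, n = 3) lay under 6, a level at which a probe set is not shown to be above background here, so the size of the fall may be understated.

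TSPAN18, which is known to bind the calcium channel Orai1, was lower in both of its probe sets. The brighter one had log2 values of 7.16, 7.18 and 7.28 in vector control cells and of 6.37, 6.59 and 6.54 in CRB3-expressing cells. It fell by 0.71 on the log2 scale (SE 0.076, 95% interval -0.88 to -0.53, limma adjusted p = 0.000998), a 1.63-fold difference. That interval spans the fold threshold. In the dimmer one the values were 7.14, 6.82 and 6.97 against 6.28, 6.19 and 6.14. That probe set fell by 0.77 (SE 0.088, limma adjusted p = 0.00140). In CRB3-expressing cells the means of the 2 probe sets were 6.50 and 6.20, not far above 6, so these falls may be understated too. The groups did not overlap in either probe set. TSPAN18 was thus the called gene whose change was seen in more than 1 probe set, since TSPAN1 and TSPAN7 have only 1 each.

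**Figure D1:**
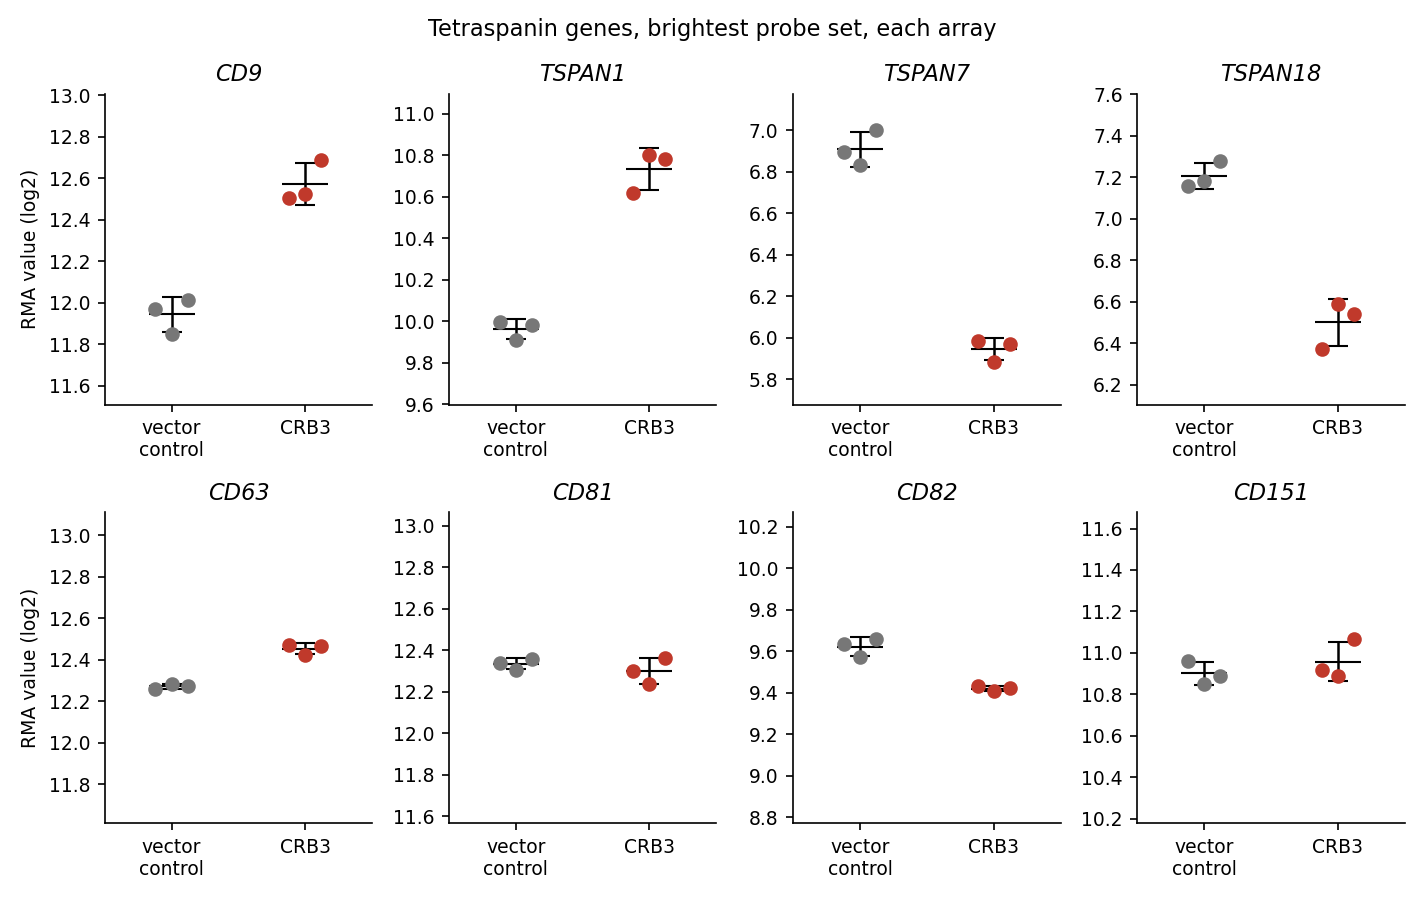
Log2 RMA value (y axis, a window of the same height in each panel) of the brightest probe set of 8 tetraspanin genes with vector control in grey and CRB3-expressing cells in red; each point is 1 of the 3 arrays of a group, and the bars show mean and SD. CD9 and TSPAN1 are higher and TSPAN7 and TSPAN18 lower on every CRB3-expressing array, while the groups of CD81 and CD151 overlap.

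The other broadly expressed members differed by less. CD63 had log2 values of 12.47, 12.42 and 12.46 in CRB3-expressing cells and of 12.26, 12.28 and 12.27 in vector control cells. The groups did not overlap, but the log2 fold change of 0.18 (SE 0.058, 95% interval 0.051 to 0.31) had an adjusted p of 0.151 from limma and corresponded to a 1.13-fold difference. CD82, known as a suppressor of metastasis, read 9.43, 9.41 and 9.42 in CRB3-expressing cells and 9.64, 9.57 and 9.66 in vector control cells, again with no overlap. Its log2 fold change was -0.20 (SE 0.059, 95% interval -0.34 to -0.068, limma adjusted p = 0.122), and its dimmer probe set had -0.25 (limma adjusted p = 0.147). Both genes stayed under the fold threshold in every alternative tried, while their adjusted p passed 0.05 in some: with a variance trend and robust prior it was 0.00429 for CD63 and 0.0335 for CD82. In the order of the genome, no protein-coding gene lies between CD82 and TSPAN18. The same holds for TSPAN32 and CD81, with log2 fold changes of 0.024 and -0.035. Between CD151 and TSPAN4, at 0.057 and -0.015, lies 1 such gene. Any part of gene position in these values was not tested.

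CD81, a partner of claudins, had values of 12.30, 12.24 and 12.36 in CRB3-expressing and of 12.34, 12.31 and 12.36 in vector control cells. CD151, the partner of laminin-binding integrins, read 10.92, 10.89 and 11.06 in CRB3-expressing cells and 10.96, 10.85 and 10.89 in vector control cells. In both genes the groups overlapped. Their log2 fold changes were -0.035 (95% interval -0.18 to 0.11, limma adjusted p = 0.839) and 0.057 (95% interval -0.10 to 0.22, limma adjusted p = 0.759), intervals that hold no difference as large as 1.5-fold. TSPAN4, TSPAN6 and TSPAN9 had log2 fold changes between -0.038 and 0.058, with adjusted p-values of 0.937, 0.721 and 0.836 from limma in that order. TSPAN3 was read by 5 probe sets. The brightest pair had log2 fold changes of -0.18 and -0.23, without overlap of the groups, while the next had 0.16 with overlapping groups, and none was called.

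The TspanC8 subgroup, named for the 8 cysteines of the large loop, escorts the sheddase ADAM10 to the cell surface and steers which substrates it cuts. Of its 6 members, 0 passed both thresholds by limma, and before adjustment 1 was higher and 0 were lower at p under 0.05, beside 10.4% and 8.39% of all genes. That gene was TSPAN14, with values of 9.94, 10.05 and 10.03 in CRB3-expressing cells against 9.74, 9.79 and 9.79 in vector control cells. Its log2 fold change of 0.23 (SE 0.062) had an limma adjusted p of 0.0891, and its second probe set had 0.14 (limma adjusted p = 0.324), also without overlap. TSPAN5 pointed the other way in its 3 probe sets, with log2 fold changes of -0.11, -0.19 and -0.17, none of which was called. TSPAN10, TSPAN15, TSPAN17 and TSPAN33 had values of 0.22, 0.20, 0.031 and -0.0046, with the TSPAN15 probe set under 6 in both groups. ADAM10 itself had a log2 fold change of 0.026 (SE 0.063, limma adjusted p = 0.887).

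**Figure D2:**
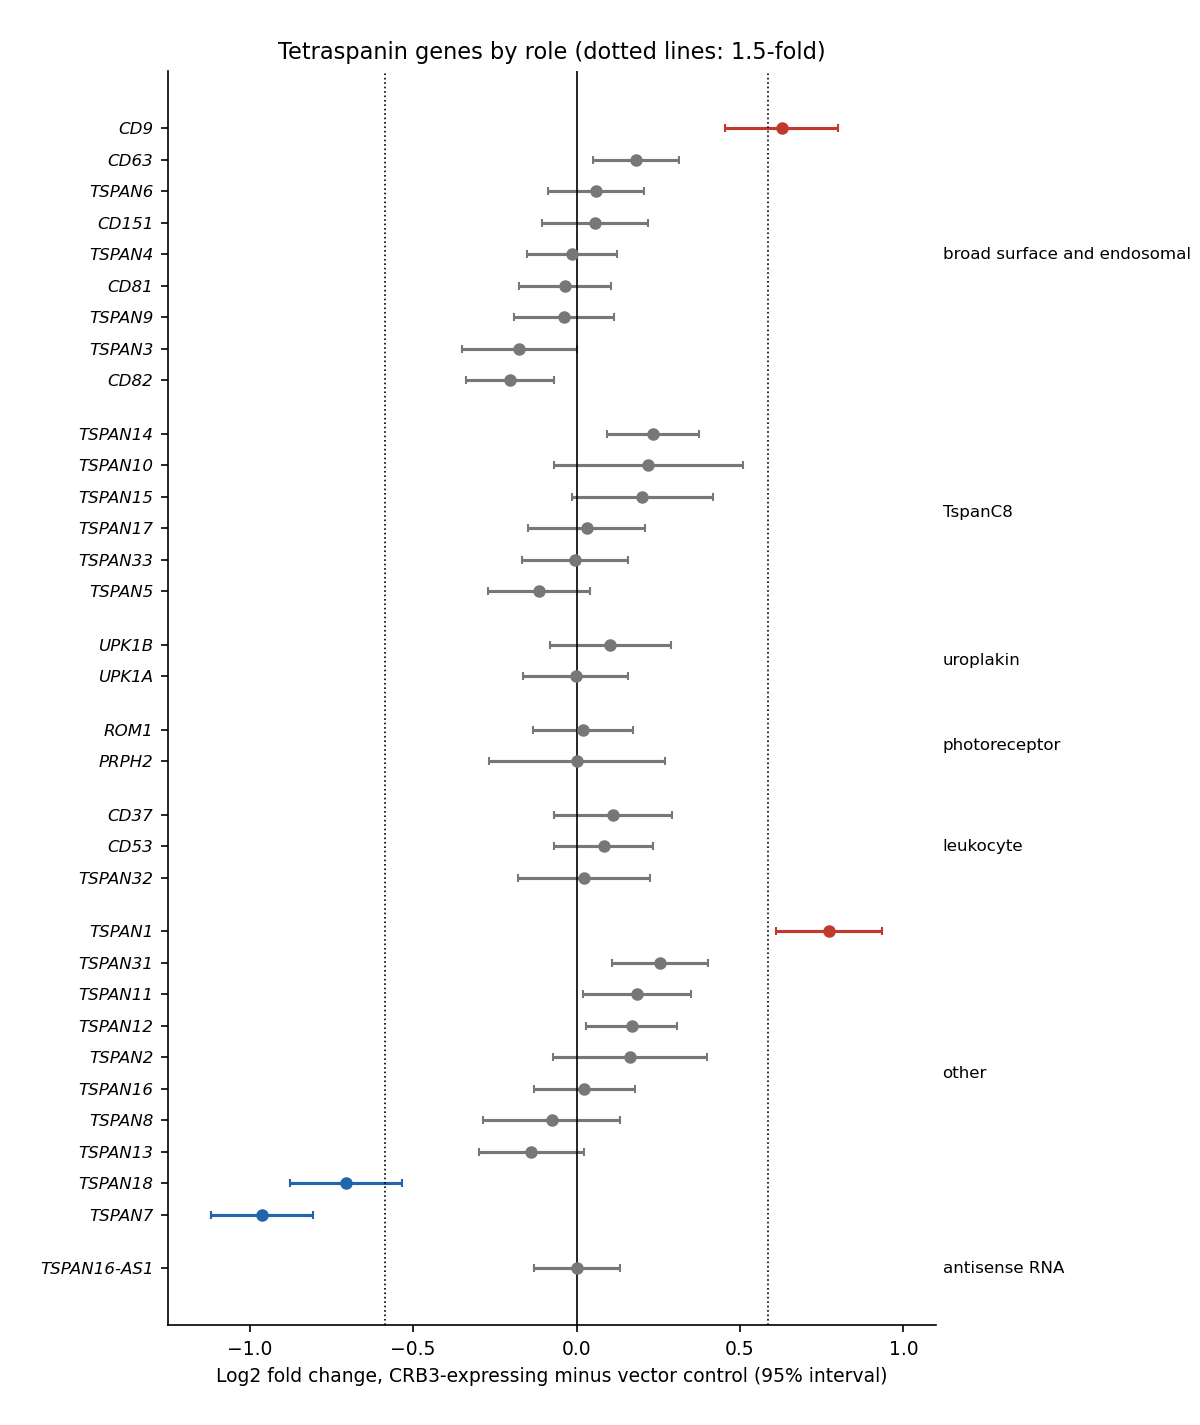
Log2 fold change (x axis, CRB3-expressing minus vector control) of the 33 tetraspanin genes by role (y axis), each in its brightest probe set; points are limma estimates with 95% intervals from n = 3 arrays per group, coloured red for genes called higher, blue for those called lower and grey for the rest, with 1.5-fold dotted. The 29 genes not called lie between -0.20 and 0.25.

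Among the uroplakin, photoreceptor and leukocyte tetraspanins there was no call. UPK1A and UPK1B, which form the plaques of the bladder urothelium, had means between 4.82 and 4.92 on the log2 scale in their brightest probe sets, where the log2 fold changes were -0.0028 and 0.10. PRPH2 and ROM1, which shape the disc rims of photoreceptors, had log2 fold changes of 0.0017 and 0.020. The leukocyte members CD37, CD53 and TSPAN32 had 0.11, 0.083 and 0.024. For each of these 3 subgroups the limma count was 0 at both thresholds and 0 at an unadjusted p under 0.05, and the groups overlapped in the brightest probe set of each. Of the 7 measured leukocyte markers 0 were called by limma, with 1, LAPTM5, lower at an unadjusted p under 0.05, beside 8.39% of all genes. PTPRC, which encodes the pan-leukocyte marker CD45, averaged 4.19 with CRB3 and 4.16 with the vector, and CD3E, CD48 and MS4A1 also lay under 6. CD14 had means of 8.27 and 8.32, LAPTM5 of 7.35 and 7.58, and ITGAM of 6.34 and 6.41, in the same order.

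Of the remaining members, TSPAN31, once named for its amplification in sarcoma, was higher on every CRB3-expressing array in both probe sets. The brighter had values of 8.55, 8.55 and 8.51 against 8.21, 8.28 and 8.36 in vector control cells, a log2 fold change of 0.25 (SE 0.065, limma adjusted p = 0.0776). The dimmer had 0.20 (limma adjusted p = 0.220), and neither was called. TSPAN13 went the other way by a small amount, with a log2 fold change of -0.14 (SE 0.071, limma adjusted p = 0.385). TSPAN12, a co-receptor component of Norrin signalling through FZD4, TSPAN11, TSPAN2 and TSPAN8 had means under 6 in both groups, and their log2 fold changes lay between -0.076 and 0.18. TSPAN16 had 0.023 and its antisense RNA TSPAN16-AS1 had 0.0021.

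Across the family, 12 of the 33 genes had groups that did not overlap, 36.4% beside 26.6% of all genes on the array. The 8 of them that were not called were 5 with higher and 3 with lower values in CRB3-expressing cells. Taking all members, 21 log2 fold changes were above 0 and 12 were below, beside 10349 above and 9426 below among all 19775 genes. In 10 genes no probe set reached a mean of 6 in either group, and 1 gene, TSPAN7, reached 6 in vector control cells alone. Of the 19 genes with several probe sets, TSPAN18 was the one in which more than 1 was called.

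**Figure D3:**
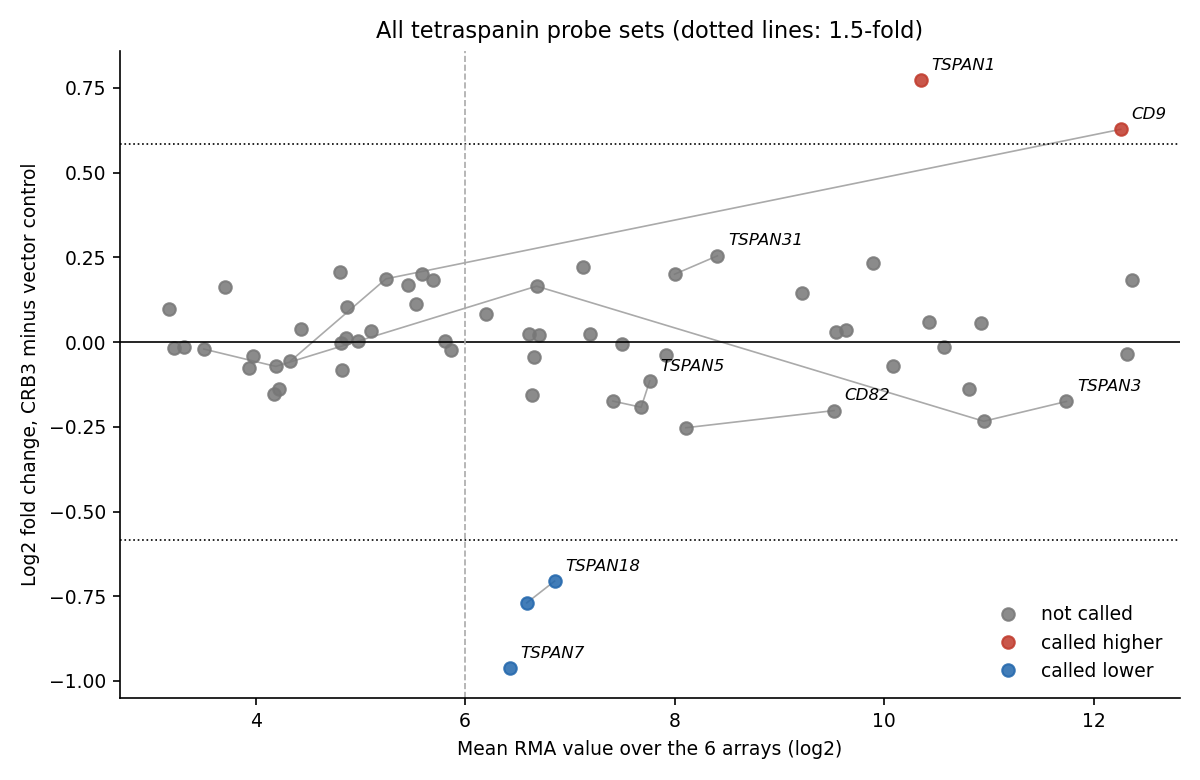
Log2 fold change (y axis, CRB3-expressing minus vector control) of the 61 tetraspanin probe sets against their mean log2 RMA value over the 6 arrays (x axis); each point is a probe set, coloured by its call, grey lines join the probe sets of CD9, TSPAN18, TSPAN3, CD82, TSPAN31 and TSPAN5, dotted lines mark 1.5-fold and the dashed line a level of 6. The 5 called probe sets lie outside the dotted lines, and both of TSPAN18 are among them.

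Known partners of the tetraspanins, endosome and vesicle proteins, and the L6 family were read as 3 lists, which were chosen with earlier results of these data known. Of 23 measured genes for direct partners, 2 were higher and 0 lower, beside 1.43% and 0.465% of all genes. The list median of the log2 fold changes was 0.026, and that of all genes was 0.0066. CLDN1, the tight junction claudin that CD9 and CD81 bind, had values of 10.25, 10.31 and 10.14 in CRB3-expressing cells and of 8.49, 8.51 and 8.67 in vector control cells, a log2 fold change of 1.68 (SE 0.077, limma adjusted p = 5.93e-06). Its second probe set had 1.61. IFITM1, an interferon-induced membrane protein that associates with CD81, was higher by 0.63 on the log2 scale (SE 0.064, limma adjusted p = 0.000702). CD44, the hyaluronan receptor, had -0.36 (SE 0.058, limma adjusted p = 0.00923) in its brightest probe set, the integrin subunit ITGA6 had -0.36 (limma adjusted p = 0.0388) and EPCAM had 0.38 (limma adjusted p = 0.0148), all under the fold threshold. The CD9 partner HBEGF had 0.068 (limma adjusted p = 0.812), and ITGA3, ITGB1 and ITGB4 lay between -0.025 and 0.063.

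Of 22 measured endosome and vesicle genes, 1 was higher and 0 were lower, beside 1.43% and 0.465% of all genes. Their median log2 fold change was 0.0060, and that of all genes was 0.0066. LAMP3, a lysosomal membrane protein distinct from CD63, had values of 6.80, 7.13 and 6.88 in CRB3-expressing cells and of 5.90, 6.22 and 5.83 in vector control cells. This was a log2 fold change of 0.95 (SE 0.12, limma adjusted p = 0.00242), whose size may be understated because the vector control mean of 5.98 lay under 6. SYTL4, a Rab27 effector, was not called in its brightest probe set (0.0026), while a dimmer one had 0.64 (limma adjusted p = 0.0185) with a vector control mean of 5.79. FLOT1, a scaffold of membrane rafts, had 0.47 (limma adjusted p = 0.00235), and RAB27B, a GTPase of vesicle secretion, had -0.36 (limma adjusted p = 0.0218), both under the fold threshold. The other endosome and lysosome markers stained in the study, EEA1 and LAMP2, had log2 fold changes of -0.13 and -0.14, with adjusted p-values of 0.659 and 0.349 from limma. The dimmer LAMP2 probe sets lay between -0.17 and 0.060. By protein staining the study saw larger EEA1 endosomes and larger, more dispersed LAMP-2 vesicles with CRB3, and transcript levels do not measure vesicle size or number. The last list held the L6 family, proteins that also cross the membrane 4 times but are no tetraspanins. Of its 5 measured genes 1, TM4SF1, was higher, beside 1.43% of all genes. TM4SF1 had a log2 fold change of 0.75 (SE 0.064, limma adjusted p = 0.000259) in its brightest probe set and 0.67 and 0.68 in the next. Its dimmest pair had 0.14 and 0.15 and was not called. The other 4 genes were not called.

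Of the epithelial markers of the cell label, 6 of 7 had means above 6 in both groups, among them KRT5 and KRT18 between 13.31 and 13.67, while KRT19 averaged 4.96 with CRB3 and 5.13 with the vector. Of these 7 measured epithelial markers 3 (CDH1, KRT8 and KRT14) were called higher and 0 lower, beside 1.43% and 0.465% of all genes. The mean over these markers lay between 11.29 and 11.40 on the CRB3-expressing arrays and between 10.67 and 10.70 on the vector control arrays, and its part in the tetraspanin differences was not tested. Of 6 fibroblast markers 1, DCN, was called lower at a log2 fold change of -0.76 (limma adjusted p = 0.00249), beside 0.465% of all genes. The mean over the list lay between 5.66 and 5.72 on the CRB3-expressing arrays, against 5.78 to 5.87 on the vector control arrays. DCN accounts for most of that shift, since the remaining markers had log2 fold changes between -0.098 and 0.098. COL1A1, the brightest of them, averaged 8.02 with CRB3 and 8.01 with the vector. COL1A2, COL3A1, LUM and PDGFRB had means under 6 in both groups, and the part of this list in the falls of TSPAN7 and TSPAN18 was not tested. All samples are MCF-10A cells, and in their bulk RNA fewer cells in some state and less RNA per cell cannot be told apart. Of 4 endothelial and 4 measured urothelial and retinal markers, 0 were called by limma, with 0 and 1 (UPK2, higher) at an unadjusted p under 0.05. At that level 10.4% of all genes were higher and 8.39% lower.

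**Figure D4:**
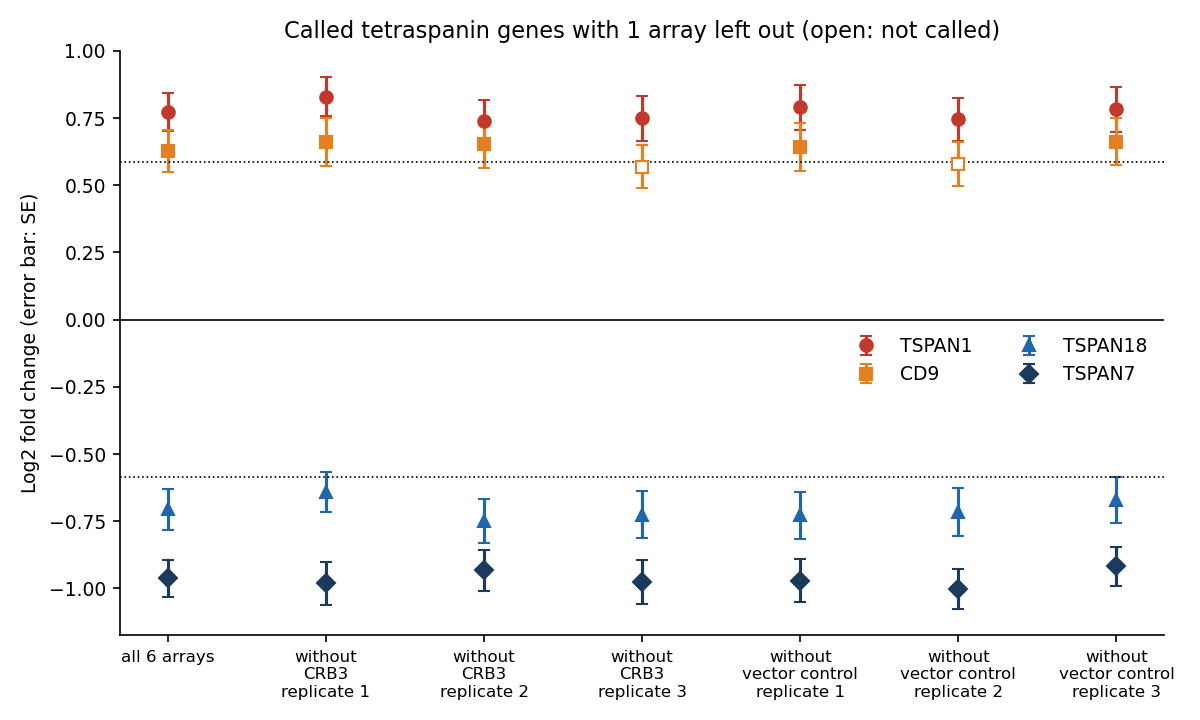
Log2 fold change (y axis, CRB3-expressing minus vector control) of the 4 called tetraspanin genes with all 6 arrays and with each array left out in turn (x axis); error bars are the SE from limma, open symbols mark fits in which the gene was not called, and dotted lines mark 1.5-fold. TSPAN1, TSPAN7 and TSPAN18 stay outside the dotted lines in each fit shown, while CD9 drops just inside at 0.57 and 0.58 in 2 of them.

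The 4 called genes kept their direction whichever array was left out. TSPAN1 then ranged from 0.74 to 0.83 on the log2 scale, CD9 from 0.57 to 0.66, TSPAN18 from -0.75 to -0.64 and TSPAN7 from -1.001 to -0.92. When each probe set had to rely on its own variance, without empirical Bayes, CD9 (adjusted p = 0.0647) and TSPAN18 (adjusted p = 0.0511) were not called. When limma's treat asked whether a change exceeded 1.5-fold, 0 tetraspanin genes were called, and TSPAN7 had an adjusted p of 0.0552.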

How the data were processed

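MCF-10A RNA from 3 CRB3-expressing and 3 vector control samples was read on 1 Affymetrix U133 Plus array each, and groups follow the sample titles. The deposited log2 values come from the authors' Robust Multichip Average (RMA) normalization, whose tool versions are not given in the sources used here, and were taken unchanged. They hold no detection calls, so changes of dim probe sets can be too small. Levels of different probe sets served to pick the brightest of a gene, to mark dim ones and to average marker lists. They are no measure of the relative abundance of different transcripts. Precision is limited by the number of arrays.

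Following the study's methods, lmFit and eBayes of limma (3.58.1, R 4.3.3) were run on 54613 probe sets, leaving out 62 controls, with Benjamini-Hochberg adjustment across them. Calls needed an adjusted p below 0.05 together with more than a 1.5-fold change. One symbol was annotated for 41091 probe sets, while 1801 had several and 11721 had none. RefSeq (GRCh38.p14) changed 0 symbols. Genes were read in their brightest single-symbol probe set.

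Values of every array are given for tetraspanin genes with a called probe set or an adjusted p below 0.05 and for CD9, CD63, CD81, CD82 and CD151. TSPAN14, TSPAN31, CLDN1 and LAMP3 were added after their values were seen. From the partner, endosome and L6 lists, called genes, ADAM10 and CD44 were to be named, and the others were chosen after their values were seen. Members and lists were chosen with earlier results of these data known. In simulated data of 54613 probe sets, 92% of 100 changes of 1 and 99% of 100 changes of 2 on the log2 scale were recovered, and 2 unchanged probe sets were called. Changes smaller than 1, as all those of the tetraspanins were, were not simulated, so these rates do not cover them. Alternatives covered normalization, variance, filters, thresholds, the probe set of a gene, each array left out, and the replicate block.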

Additional observations from a re-analysis of the deposited data

How the results depend on the processing

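The number of tetraspanin genes called (2 higher, 2 lower) and of their probe sets called (2 higher, 3 lower) was the same with a block for the replicate number, with a variance trend and robust prior, after median-centring or renewed quantile normalization, with both filters on dim probe sets, array weights and no fold threshold, as was the gene count over any probe set and without shared probe sets. When each probe set had to rely on its own pooled variance it was 1 higher and 1 lower, over genes and over probe sets alike. Above a 2-fold change, and by limma's treat against 1.5-fold, 0 genes and 0 probe sets were called in either direction. At an unadjusted p under 0.05 limma gave 7 higher and 3 lower genes of 33, beside 10.4% and 8.39% of all genes. With the mean over the probe sets of a gene, 1 gene was higher. Leaving out 1 array gave 1 to 2 genes and 1 to 2 probe sets higher, the 1 being TSPAN1 without CRB3-expressing replicate 3 or vector control replicate 2, and 2 genes and 3 probe sets lower each time. The partner, endosome and L6 lists together had 4 called genes, 9 with no fold threshold, 1 above a 2-fold change, 1 by treat, 4 whichever array was left out, 5 over any probe set, and 3 with the pooled variance, with the mean over probe sets and without shared probe sets. The cause of these differences was not tested, beyond the thresholds that the fold settings change by construction. Same-numbered samples of the groups did not deviate together (correlations of -0.085, 0.064 and 0.029 across probe sets), and not every sample correlated best with its own number. In a fit with the replicate block, the gene counts were 2 higher and 2 lower, the probe set counts 2 and 3, and the list count 4.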
